A study of Mus musculus with 24 samples.

Results

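The aminoacyl-tRNA synthetase genes were read out in mouse hearts sampled on day 5 of a study of toxin injury, with and without pyridostigmine, a drug that inhibits cholinesterase. They were found by symbol in the deposited gene counts: a capital letter followed by "ars" and, in some, a 2, with Eprs, Farsa and Farsb added. This gave 37 of the 46078 genes, 20 whose product works in the cytosol and 17 whose symbol ends in 2 and whose product works in mitochondria, and all 37 were among the 15456 genes tested. Tarsl2, a threonyl-tRNA synthetase-like gene, is outside this rule and is given with the genes of transfer RNA (tRNA) handling.

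An aminoacyl-tRNA synthetase joins 1 amino acid to the tRNAs that carry it, the step that fixes the genetic code. Cytosolic and mitochondrial ribosomes draw on separately charged tRNAs, so most amino acids have a pair of nuclear genes, the mitochondrial product being imported. Gars and Kars each encode both forms, Eprs carries both the glutamate and the proline activity, and mitochondrial glutaminyl-tRNA is made by a transamidation route in place of a synthetase. Several cytosolic synthetases sit together in the multisynthetase complex, and many cytosolic synthetase genes are known targets of ATF4, the transcription factor of the integrated stress response. Heart muscle is rich in mitochondria, and inherited defects of mitochondrial synthetases are known to cause cardiomyopathy.

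Ventricular apexes of hearts from males of the C57BL/6 strain, at an age of 10 weeks, were sampled on day 5, and each group held 6 libraries of polyadenylated RNA. WT_PBS hearts were wild type, had no diphtheria toxin and received the vehicle PBS, and WT_PYR hearts differed from them in receiving pyridostigmine. DTR_PBS and DTR_PYR hearts were labelled DTR, a name in common use for the diphtheria toxin receptor, and as injured by the toxin, with PBS or pyridostigmine. The toxin inactivates elongation factor eEF2 and so stops cytosolic protein synthesis in cells that take it up. The sources used here do not give which cells carried the receptor, the dose or what day 5 was counted from, and genotype and toxin cannot be told apart because they moved together. Each title carried its own animal tag, which ended in the letter U or the letter V with no meaning stated. Every p-value measures the spread between these libraries.

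The libraries held 1877914 to 37842245 counts, and levels are given as CPM, counts scaled to a common library size with the TMM method. On the first principal component of all genes tested, which carried 44.2% of the variance, the WT libraries lay between -57.2 and -35.1 and the DTR_PBS libraries between 30.3 and 113.7. DTR_PYR libraries 1, 2 and 3 lay at 59.3, 104.3 and 41.0, among the DTR_PBS libraries, and DTR_PYR libraries 4, 5 and 6 at -35.4, -25.6 and -20.9, at or next to the WT libraries. Fitted results that rest on DTR_PYR are therefore given with and without those last 3 libraries. Summed cardiomyocyte markers (Myh6, Tnnt2, Tnni3, Actc1, Ryr2, Myl2 and Pln) stood at 68342 to 73752 CPM in WT_PBS hearts, so heart muscle genes were abundant, and at 17483 to 51806 CPM in DTR_PBS hearts.

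Cytosolic synthetase genes were, in the median, more abundant per exon length than mitochondrial ones in uninjured WT_PBS hearts, in CPM per kb of exon. The length merged all annotated exons of a gene, 18102 bases in Eprs, so levels and ranks depend partly on the annotated transcripts. The cytosolic genes ranged from 2.91 for Cars, which charges cysteine, to 31.3 for Kars, which charges lysine, with a median of 11.5. Leaving out Lars2, the 16 mitochondrial genes ranged from 1.18 for Wars2 (tryptophan) to 12.7 for Iars2 (isoleucine), with a median of 4.54. Kars stood at 31.3 ± 3.89 CPM per kb (SD, n = 6), above Gars (glycine) at 22.1 ± 3.56 and Wars (tryptophan) at 21.0 ± 2.70. Gars and Wars lay within an SD of each other. Among mitochondrial genes Iars2 at 12.7 ± 1.34 and Fars2 (phenylalanine) at 11.7 ± 1.39 CPM per kb likewise lay within an SD of each other, and Nars2 (asparagine) and Wars2 shared the lowest level, 1.18 ± 0.391 and 1.18 ± 0.319.

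**Figure D1:**
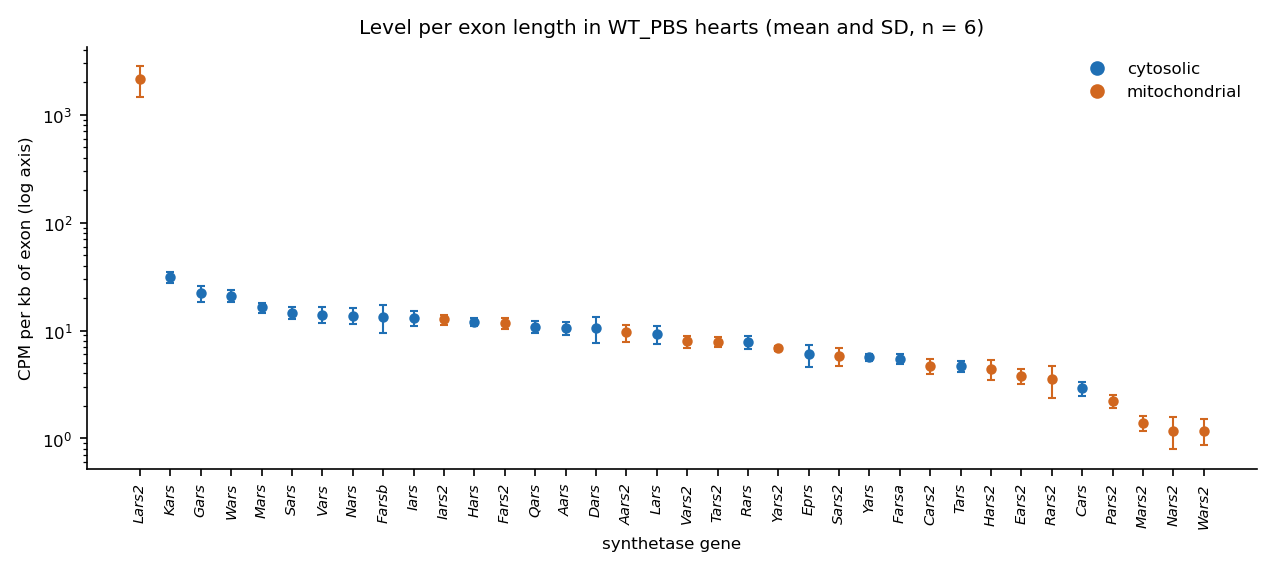
Mean level per kb of exon in the 6 WT_PBS hearts for 36 of the 37 synthetase genes, on a log axis, with bars of 1 SD, cytosolic genes in blue and mitochondrial genes in orange. Lars2 stands apart at 2138 CPM per kb, the other mitochondrial genes lie between 1.18 and 12.7 and the cytosolic genes between 2.91 and 31.3.

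Lars2, which charges mitochondrial leucyl-tRNA, was counted at a level unlike that of any other synthetase gene. It averaged 2138 ± 677 CPM per kb in WT_PBS hearts and took 0.871% to 2.93% of all counts in a library. Its share was 1.36%, 2.33% and 2.53% (lowest, median and highest) in WT_PBS, 0.871%, 1.32% and 2.30% in WT_PYR, 1.03%, 1.79% and 2.93% in DTR_PBS and 0.903%, 1.02% and 2.26% in DTR_PYR hearts, so every pair of groups overlapped. The Lars2 count was compared with that of mt-Rnr2, the mitochondrial 16S ribosomal RNA. There were 32.0 to 73.7 Lars2 counts per 100 mt-Rnr2 counts in WT_PBS hearts and 87.0 to 156.7 in DTR_PBS hearts, which did not overlap. The ranges were 46.1 to 82.2 in WT_PYR and 45.3 to 88.3 in DTR_PYR hearts, which overlapped. The mt-Rnr2 share of all counts averaged 4.23% (1.84% to 7.72%) in WT_PBS and 1.82% (1.04% to 2.93%) in DTR_PBS hearts. The denominator was thus lower on average in DTR_PBS hearts, and a higher ratio is not by itself a rise in Lars2. None of the 9 annotated Lars2 transcripts shared a stretch of 25 bases with mt-Rnr2, and the longest stretch they shared was 12 bases. Where the Lars2 reads arose was not tested, so Lars2 is left out of the summed levels.

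The letters searched in the promoters were TGATGNAA, the core of the element that ATF4 binds with C/EBP partners, its form TGATGCAA, which is also a TGATGNAA match, and CACGTG, the E-box of MYC and related factors, on both strands over the 250 bases before each RefSeq start. This search was chosen after the expression values were seen. RefSeq (GRCm38.p6) gave a promoter for 26 of the 37 genes, 12 cytosolic and 14 mitochondrial. The cytosolic genes Cars, Hars, Lars, Mars, Nars, Rars, Vars and Wars had no entry and were not searched. Among them Cars, Hars, Nars, Rars and Vars rose in injured hearts. TGATGNAA was found in 3.45% of 32851 RefSeq promoters and in those of 3 cytosolic genes, Aars, Gars and Tars, while TGATGCAA was in 0.791% of promoters and in those of Aars and Tars. CACGTG was in 6.02% of promoters and in those of Aars, Farsb and Iars. Of the 14 mitochondrial genes with a promoter, 0 held any of these letters there. At shares of 3.45% and 6.02% over all promoters, 0 among so few genes says little. A match is a string of letters and not a measured binding site, and no match says only that the letters are not in that window. The Tars and Gars windows are shown because Tars rose in injured hearts and Gars did not pass the test, and the capitals mark the match as read on the gene's strand:
Tars, chr15:11399659-11399778, minus strand: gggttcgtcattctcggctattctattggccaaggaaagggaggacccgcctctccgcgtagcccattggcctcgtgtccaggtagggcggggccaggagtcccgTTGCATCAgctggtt
Gars, chr6:55037881-55038000, plus strand: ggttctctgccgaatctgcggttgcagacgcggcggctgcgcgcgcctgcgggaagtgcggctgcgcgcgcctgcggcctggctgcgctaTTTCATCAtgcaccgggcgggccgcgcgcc
The match began 15 bases before the RefSeq start in Tars and 30 bases before it in Gars.

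The first comparison asked what the toxin injury did to the synthetase genes without the drug. RNA of several cytosolic synthetases rose and RNA of several mitochondrial synthetases fell. Of the 20 cytosolic genes 9 rose, 2 fell and 9 did not pass, and of the 17 mitochondrial genes 1 rose, 9 fell and 7 did not pass, at an adjusted p under 0.05 in the edgeR quasi-likelihood test. Over all 15456 genes 42.9% were called in this comparison, 21.3% up and 21.6% down, so the mitochondrial rise and the cytosolic falls were below those shares and the other counts above them. The median log2 change of DTR_PBS against WT_PBS was 0.31 for the cytosolic genes, -0.49 for the mitochondrial genes and 0.01 for all genes. In 8 cytosolic genes every DTR_PBS library was above every WT_PBS library, as in 11.2% of all genes, and in 1 cytosolic and 3 mitochondrial genes every one was below, as in 11% of all genes. These counts depend on the scaling. With plain total counts, which raise the median of all genes by 0.37, cytosolic calls were 16 up and 0 down and mitochondrial calls 3 up and 3 down, against 5705 up and 1756 down among all genes.

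**Figure D2:**
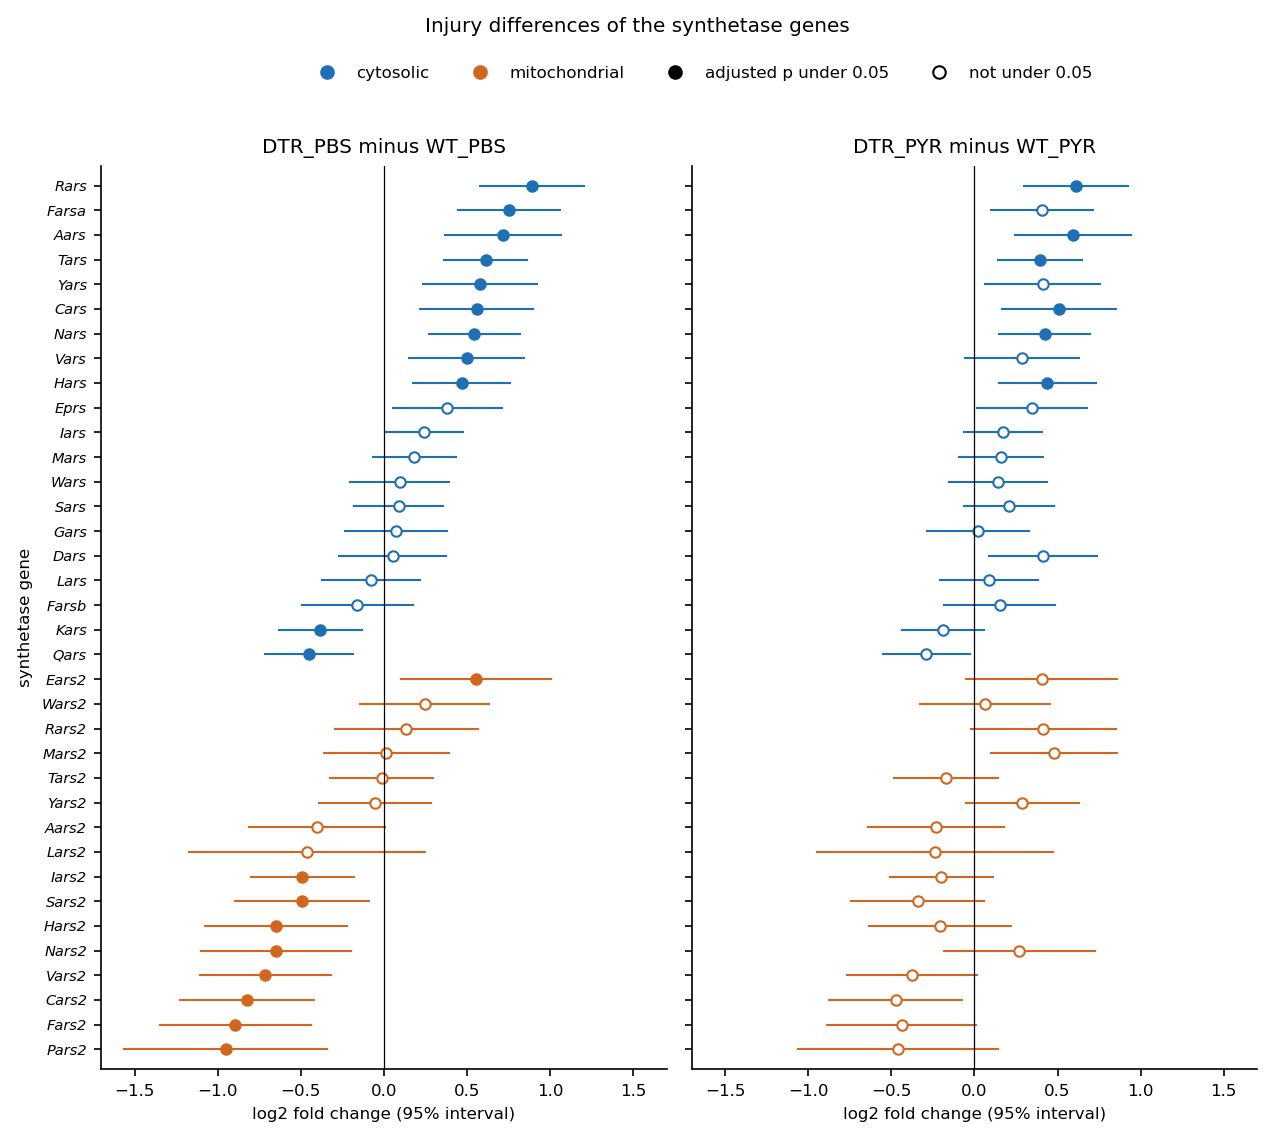
Log2 fold change of 36 of the 37 synthetase genes with its 95% interval, DTR_PBS minus WT_PBS on the left and DTR_PYR minus WT_PYR on the right, cytosolic genes in blue and mitochondrial genes in orange, with filled points where the adjusted p was under 0.05. On the left 9 cytosolic and 1 mitochondrial points are filled above 0 and 2 cytosolic and 8 mitochondrial points below 0, with 1 mitochondrial gene that fell not drawn, and on the right 6 cytosolic points are filled, all above 0.

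Rars, which charges arginine within the multisynthetase complex, had the largest cytosolic rise. Its level was 21.7, 24.5 and 30.3 CPM (lowest, median and highest) in WT_PBS hearts and 38.8, 46.3 and 59.8 CPM in DTR_PBS hearts. All 6 injured hearts were above all 6 controls, a log2 change of 0.89 ± 0.15 (SE) or 1.85-fold (adjusted p = 8.13e-05). Farsa, the catalytic subunit of phenylalanyl-tRNA synthetase, stood at 21.6, 25.6 and 27.2 CPM in WT_PBS and at 36.6, 41.3 and 48.4 CPM in DTR_PBS hearts, again without overlap (log2 change 0.75 ± 0.15, adjusted p = 0.000309). Farsb, the other subunit of the same enzyme, had 25.1, 33.3 and 51.3 CPM against 26.6, 30.6 and 38.3 CPM and did not pass (-0.16 ± 0.16, adjusted p = 0.45). The difference between both subunit genes was not tested.

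Aars (GRCm38 chr8:111033144-111057664, plus strand), which charges alanine, was at 75.4, 99.7 and 113 CPM in WT_PBS and 123, 167 and 200 CPM in DTR_PBS hearts. Its groups did not overlap and it rose 1.64-fold (log2 change 0.72 ± 0.17, adjusted p = 0.00143). It shares 14.3% of its exon bases with Exosc6, so its count is less certain. Tars, for threonine, was at 22.9, 28 and 31.0 CPM against 37.2, 40.4 and 49.3 CPM, without overlap (0.61 ± 0.12, adjusted p = 0.000329). Yars (tyrosine) was at 31.3, 33.1 and 38.6 CPM in WT_PBS hearts and 47.0, 48.8 and 58.2 CPM in DTR_PBS hearts, and rose by a log2 change of 0.58 ± 0.17.

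The remaining cytosolic rises were smaller, at 1.38-fold to 1.47-fold. Cars, for cysteine, went from a median of 18.6 to 28.4 CPM (log2 change 0.56), Nars, for asparagine, from 60.4 to 85.9 CPM (0.54) and Hars, for histidine, from 28.9 to 39.7 CPM (0.47), each without overlap. Vars, for valine, was at 59.2 to 94.8 CPM in WT_PBS and 92.7 to 148 CPM in DTR_PBS hearts, so its groups overlapped (log2 change 0.50 ± 0.17, adjusted p = 0.0191). Its call was lost without DTR_PBS library 4.

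The cytosolic falls were in Qars and Kars, both members of the multisynthetase complex. Qars (glutamine) was at 57.6, 71.1 and 85.4 CPM in WT_PBS hearts and 46.6, 53.2 and 56.0 CPM in DTR_PBS hearts, so all 6 injured hearts were below all controls (log2 change -0.45 ± 0.13, adjusted p = 0.00592). Kars was at 112, 146 and 157 CPM against 87.3, 110 and 126 CPM, and its groups overlapped (-0.38 ± 0.12, adjusted p = 0.0125). With total-count scaling both calls ended, at -0.09 for Qars and -0.04 for Kars.

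Of the 8 cytosolic genes whose product sits in the multisynthetase complex (Dars, Eprs, Iars, Kars, Lars, Mars, Qars and Rars) 1 rose and 2 fell, with a median log2 change of 0.12. Of the 12 genes outside it 8 rose and 0 fell, with a median of 0.52. The counts within the complex lay near the shares over all genes, 21.3% up and 21.6% down. The difference between both sets was not tested. Eprs was at 71.4, 110 and 147 CPM in WT_PBS hearts and 123, 134 and 168 CPM in DTR_PBS hearts, a log2 change of 0.38 ± 0.16 that did not pass (adjusted p = 0.057) and that passed with DESeq2 (adjusted p = 0.0402) and limma voom (adjusted p = 0.0482). In the edgeR quasi-likelihood test Eprs also passed with DESeq2 size factors (adjusted p = 0.0494), a filter of 0.5 CPM in 13 libraries (0.0472) and total-count scaling (0.00101). It passed too without WT_PBS library 6, WT_PYR library 1 or DTR_PBS library 5 or 6. Iars stood at 61.1, 63.4 and 89.6 CPM against 73.1, 79.3 and 93.1 CPM (0.24 ± 0.11, adjusted p = 0.0886) and passed without WT_PBS library 1. Mars, Dars and Lars had log2 changes of 0.18, 0.05 and -0.08, and outside the complex Wars, Sars (serine) and Gars had 0.09, 0.09 and 0.07, none of which passed.

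By the 2 structural classes of synthetase, which differ in the fold of the catalytic domain, 4 of 9 class I genes rose and 1 fell, and 5 of 10 class II genes rose and 1 fell, with Eprs counted in neither because it holds 1 domain of each. Median log2 changes were 0.24 and 0.28, and over all genes 21.3% rose and 21.6% fell.

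In 3 mitochondrial genes every injured heart was below every control, and Pars2 and Iars2 are among them. Pars2, for proline, was at 5.70, 7.02 and 8.14 CPM against 0.887, 3.8 and 5.51 CPM (-0.95 ± 0.30, adjusted p = 0.0113), and rested on as few as 2 counts in a library. Its call ended with total-count scaling (adjusted p = 0.0664).

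Iars2, for isoleucine, was the most abundant mitochondrial synthetase gene after Lars2 per exon length. It stood at 102, 108 and 132 CPM in WT_PBS hearts and 59.6, 82.9 and 95.6 CPM in DTR_PBS hearts (log2 change -0.49 ± 0.15, adjusted p = 0.0101). It shares 22.9% of its exon bases with Rab3gap2 on the other strand. Fars2 fell from 56.0, 68.8 and 75.8 CPM to 17.2, 38.5 and 56.8 CPM, with a slight overlap (-0.89 ± 0.22, adjusted p = 0.0021). Cars2 was at 27.2, 34.7 and 41.3 CPM against 12.0, 18.2 and 27.9 CPM (-0.82 ± 0.20, adjusted p = 0.00159). In both genes DTR_PBS libraries 1 and 2 were the lowest of the injured hearts.

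Vars2 (log2 change -0.71), Hars2 (-0.65), Nars2 (-0.65) and Sars2 (-0.49) also fell, with overlapping groups. Their medians went from 43.6 to 30 CPM, from 19.2 to 10.9 CPM, from 7.40 to 5.42 CPM and from 20.3 to 14.4 CPM. Hars and Hars2 are neighbours on opposite strands that share 195 exon bases, and their fitted changes had opposite signs. The Nars2 call was lost without WT_PBS library 1 or DTR_PBS library 2. The Sars2 call (adjusted p = 0.0438) was lost without any 1 of WT_PBS libraries 2, 3, 4 and 5 and DTR_PBS libraries 1, 2 and 4, and also without a filter, with only the groups compared and without the 3 shallowest libraries. With total-count scaling Vars2, Hars2, Nars2, Sars2 and Iars2 no longer passed, at -0.40, -0.27, -0.26, -0.17 and -0.14.

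Ears2, for glutamate, was the 1 mitochondrial gene that rose, at 15.1, 19.4 and 23.0 CPM in WT_PBS and 19.6, 29.0 and 38.6 CPM in DTR_PBS hearts. The groups overlapped (log2 change 0.55 ± 0.22, adjusted p = 0.0446), and the call held in 14 of 24 fits with 1 library left out. It also ended with limma voom (0.50, adjusted p = 0.0573) and without a filter on low counts (adjusted p = 0.0587). It was lost without any 1 of WT_PBS libraries 2, 4, 5 and 6, WT_PYR libraries 2 and 6 and DTR_PBS libraries 3, 4, 5 and 6. Aars2 at -0.40 (adjusted p = 0.108) did not pass, but passed without DTR_PBS library 5, with limma voom (-0.51, adjusted p = 0.0481) and with the tag letter as a term (-0.53, adjusted p = 0.0344). Lars2 at -0.46 had a wide interval, -1.17 to 0.25 (adjusted p = 0.294), and Wars2 (0.24), Rars2 (0.13), Mars2 (0.01), Tars2 (-0.01) and Yars2 (-0.05) did not pass either.

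**Figure D3:**
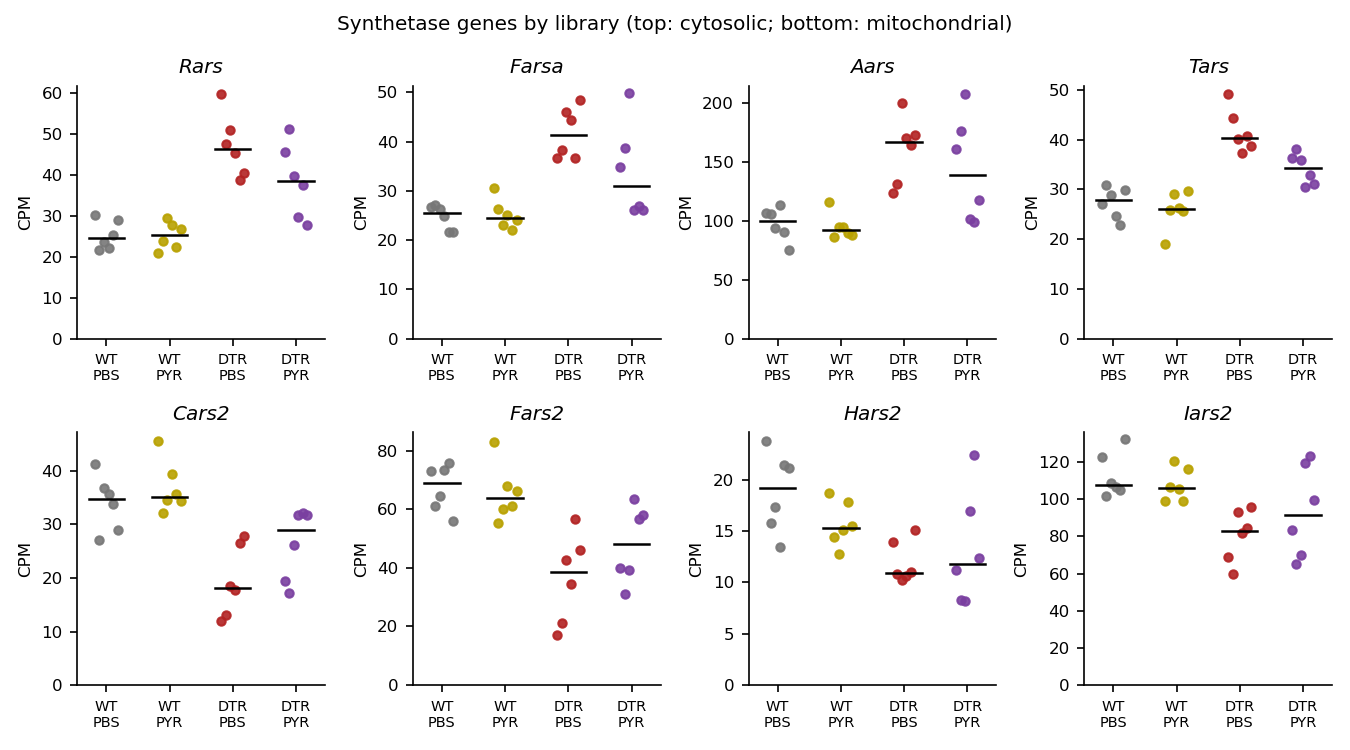
CPM of 4 cytosolic genes (top row) and 4 mitochondrial genes (bottom row) in each library, by group, with the median as a line and axes from 0. In the top row all DTR_PBS points lie above all WT_PBS points, and in the bottom row they lie below in Iars2 and overlap in Cars2, Fars2 and Hars2, while the DTR_PYR points spread over both ranges.

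The summed levels show both compartments at once. Summed cytosolic synthetase RNA had a median of 1168 CPM in WT_PBS and 1426 CPM in DTR_PBS hearts, and summed mitochondrial synthetase RNA without Lars2 a median of 506 and 400 CPM. There were 40.3 to 44.8 mitochondrial CPM per 100 cytosolic CPM in WT_PBS hearts and 19.7 to 33.6 in DTR_PBS hearts, so these ranges did not overlap. Within a library this ratio does not depend on scaling. It was lowest in DTR_PBS libraries 1 and 2, at 19.7 and 21.5, whose summed cardiomyocyte markers were also the lowest, at 17483 and 19182 CPM. Ratios by amino acid, chosen after the values were seen and given as a description, were set up for 17 pairs. In 10 of them every DTR_PBS heart was below every WT_PBS heart, in 7 the groups overlapped and in 0 every one was above. In DTR_PYR against WT_PYR hearts 2 of the 17 were all lower, Cars2 per 100 Cars among them, 15 overlapped and 0 were all higher. A share over all features was not computed for such ratios. Several pairs set a gene called down against a gene called up, as in Cars2 with Cars and Hars2 with Hars. Their separation was therefore partly built in. Eprs was the partner of both Ears2 and Pars2, and Lars2 was kept among the pairs. Fars2 per 100 Farsa was at 225 to 350.5 in WT_PBS and 46.9 to 154.4 in DTR_PBS hearts, and Cars2 per 100 Cars at 167.8 to 191.6 and 40.9 to 107.6. Farsa was taken as the partner of Fars2, and a ratio to Farsb, which did not pass, was not set up. WT_PBS library 6 held 56.0 CPM of Fars2 and 41.4 CPM of Farsb, and DTR_PBS library 5 held 56.8 and 31.0 CPM. With Farsb as the partner the groups would therefore overlap.

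**Figure D4:**
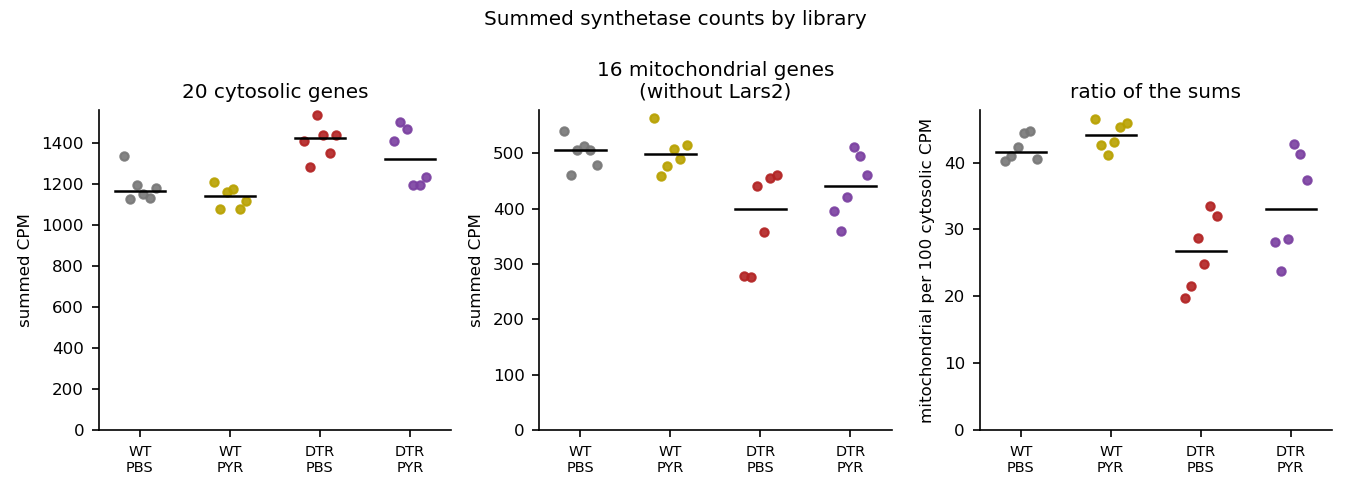
Summed CPM of the 20 cytosolic genes, summed CPM of the 16 mitochondrial genes without Lars2, and mitochondrial CPM per 100 cytosolic CPM, each point a library and each line a group median, with axes from 0. The ratio lies between 40.3 and 46.5 in all WT hearts, between 19.7 and 33.6 in DTR_PBS hearts, and in DTR_PYR hearts at 23.8 to 28.6 in libraries 1, 2 and 3 and 37.4 to 42.8 in libraries 4, 5 and 6.

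Cell-type markers moved with the same comparison, in which 21.3% of all genes were called up and 21.6% down. All 8 macrophage markers rose and their sum went from 168 to 244 CPM in WT_PBS hearts to 487 to 1767 CPM in DTR_PBS hearts. Of the fibroblast markers 4 of 6 rose (sum 677 to 806 against 1837 to 3830 CPM) and all 6 proliferation markers rose (5.06 to 19.3 against 41.1 to 238 CPM). Cardiomyocyte markers fell in 5 of 7 and endothelial markers in 4 of 5 (sum 845 to 1135 against 493 to 650 CPM). In bulk tissue, fewer cells of a type and less RNA per cell cannot be told apart. None of these lists had a member at 0 in any group mean, and their part in the synthetase changes was not tested. Of the 8 interferon-stimulated markers 1 rose (Mx1) and 3 fell (Gbp2 and Irf1 among them), and Wars, a synthetase gene known to be induced by interferon, did not pass.

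Genes that work beside the synthetases were read in the same comparison, in which 21.3% of all genes were called up and 21.6% down. A count near those shares says nothing particular about its list. Of the 3 scaffold genes of the multisynthetase complex, Eef1e1 (also called Aimp3) and Aimp2 rose and Aimp1 did not pass. Eef1e1 went from 6.99, 8.54 and 9.78 CPM to 14.9, 18 and 19.1 CPM without overlap (log2 change 1.07 ± 0.22, adjusted p = 0.000411), and Aimp2 changed by 0.89 and Aimp1 by 0.01. Of 10 genes of cytosolic tRNA handling 2 rose (the tRNA exporter Xpot, 0.36, and the pseudouridine synthase Pus1) and 4 fell, among them Osgep (-0.84), which modifies tRNA, the selenocysteine kinase Pstk (-0.86) and Tarsl2 (-0.96). Their median was -0.38. Of 10 genes of mitochondrial tRNA handling 2 rose and 3 fell, near the shares over all genes. Gatb, a subunit of the transamidase that makes mitochondrial glutaminyl-tRNA, was at -1.18 (adjusted p = 2.7e-05). Hsd17b10, a subunit of mitochondrial RNase P, was at -0.58 and Trmt10c, the methyltransferase subunit of that enzyme, at 0.97. The tRNA 3' nuclease Elac2 was at 0.38.

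Downstream of charging, 2 of 7 cytosolic elongation factors rose, Eef1g (0.76) and Eef1a1 (0.94), which delivers charged tRNA to the ribosome, and 0 fell. The shares over all genes were again 21.3% up and 21.6% down. Of 10 mitochondrial translation factors 0 rose and 4 fell: the elongation factors Gfm1 (-0.83) and Tsfm (-0.67), the release factor Mtrf1 (-0.97) and the recycling factor Gfm2 (-0.39). Their median was -0.44. Of 10 amino acid transporters tested 7 rose and 1 fell. The carriers of neutral amino acids Slc38a2 (1.52) and Slc7a8 (2.63) and the cystine carrier Slc7a11 (2.01) were among the rises, and Slc7a1, a carrier of cationic amino acids such as the arginine that Rars uses, fell by 0.62 on the log2 scale.

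The integrated stress response, through which phosphorylation of eIF2 raises ATF4, was read as 22 genes. Of these 13 rose and 2 fell, with a median log2 change of 1.12, beside 21.3% of all genes up and 21.6% down. Atf4 stood at 64.9, 67.8 and 79.8 CPM in WT_PBS hearts and 253, 341 and 457 CPM in DTR_PBS hearts, without overlap (log2 change 2.35 ± 0.30, adjusted p = 1.12e-05). Asns, the asparagine synthetase that is not a tRNA synthetase, rose by 1.60 and Ddit3 (CHOP) by 1.01, both with overlap, while Trib3 at -0.47 did not pass. Ppp1r15a, which restores eIF2, rose by 2.89, the stress-induced transcription factor Atf3 by 3.93 and Psat1, of serine synthesis, by 2.21. Of the 4 eIF2 kinases Eif2ak3 (PERK, 0.77) and Eif2ak2 (PKR, 0.84) rose and the other two did not pass. Whether the stress genes and the synthetase genes changed in the same cells was not tested.

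The same injury was next compared under pyridostigmine, in DTR_PYR against WT_PYR hearts. Of the 20 cytosolic genes 6 rose and 0 fell, and of the 17 mitochondrial genes 0 were called by the edgeR quasi-likelihood test, with 3 at an unadjusted p under 0.05, 1 called by DESeq2 (Mars2, 0.49) and 0 by limma voom. Over all genes 12.2% were called, 8.06% up and 4.17% down, and 4562 of 15456 stood at an unadjusted p under 0.05. DESeq2 called 2637 and limma voom 787 of all genes. Medians were 0.32 and -0.21 on the log2 scale, beside 0.04 for all genes. The genes that rose were Rars (0.61), Aars (0.59), Cars (0.51), Hars (0.44), Nars (0.42) and Tars (0.39), all of which had also risen under PBS. Only in Tars, at 19.0, 26.1 and 29.8 CPM in WT_PYR and 30.5, 34.4 and 38.2 CPM in DTR_PYR hearts, was every injured heart above every control, as in 2.19% of all genes, and in 0 synthetase genes was every one below, as in 3.18% of all genes.

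Most of these 6 calls were not stable. Rars held in 24 of 24 fits with 1 library left out and in 9 of 10 other settings, and Aars in 20 and 8. Cars, Hars, Nars and Tars held in 12, 13, 18 and 17 of the 24 fits, and each in 6 of the 10 settings. The cytosolic count was 2 with limma voom, 1 when only both groups compared were fitted and 0 without the 3 shallowest libraries, which are DTR_PBS library 4 and DTR_PYR libraries 2 and 3. Both of these DTR_PYR libraries lay among the DTR_PBS libraries, so leaving them out builds in a smaller injury response. Over all genes 5.09% were called with limma voom, 8.91% with only both groups compared and 0.647% without the 3 shallowest libraries. The main fit called 12.2%, so these drops were not particular to the synthetase genes. Without DTR_PYR library 1, 2 or 3 the cytosolic count was 1, without WT_PYR library 2 or 6 it was 2, and without WT_PYR library 1, 4 or 5 it was 3. Without DTR_PYR library 4 or 6 it was 8, with Farsa and Yars added, and without DTR_PYR library 5 Farsa was added. Dars (log2 change 0.41, adjusted p = 0.0826), Farsa (0.41, 0.0715) and Mars2 (0.48, 0.0854) lay nearest to the threshold among those that did not pass.

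Among the companion genes under pyridostigmine, Eef1e1 rose by a log2 change of 1.33 and was again without overlap, at 4.29, 6.08 and 8.62 CPM in WT_PYR and 9.61, 15.2 and 22.6 CPM in DTR_PYR hearts. Gatb fell by 0.59 on the log2 scale, the 1 call among 10 genes of mitochondrial tRNA handling. Of the 22 integrated stress response genes 6 rose and 0 fell, Atf4 by 1.78 without overlap, at 60.9 to 78.8 CPM against 81.8 to 394 CPM. Amino acid transporters rose in 2 of 10, Slc38a2 (0.98) and Slc7a8 (1.79). Over all genes 8.06% were called up and 4.17% down in this comparison. Cytosolic tRNA handling, cytosolic elongation factors, mitochondrial translation factors and eIF2 kinases gave 0 calls by the edgeR quasi-likelihood test, with 1, 2, 0 and 1 genes at an unadjusted p under 0.05. Of all 15456 genes 4562 stood under that unadjusted p. Of the cell-type markers 8 of 8 macrophage and 4 of 6 fibroblast markers rose, and 1 of 7 cardiomyocyte and 3 of 5 endothelial markers fell. Without DTR_PYR libraries 4, 5 and 6 the changes were 1.81 for Eef1e1, -0.92 for Gatb, 2.42 for Atf4, 1.43 for Slc38a2 and 2.57 for Slc7a8. In that fit 12 of 22 stress response genes, 6 of 10 transporters and 3 of 7 cytosolic elongation factors rose and 0 fell, and 3 of 10 mitochondrial translation factors fell and 0 rose. Of cytosolic tRNA handling 1 rose and 2 fell, of mitochondrial tRNA handling 2 rose and 1 fell, and of the eIF2 kinases 1 rose. All 8 macrophage and 4 of 6 fibroblast markers rose and 4 of 7 cardiomyocyte and 4 of 5 endothelial markers fell, with 33% of all genes called. Their part in the synthetase changes was not tested.

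The DTR_PYR hearts fell into the 2 sets seen on the first principal component. Yars was at 54.7, 60.1 and 63.2 CPM in DTR_PYR libraries 1, 2 and 3 and at 30.8, 34.2 and 32.2 CPM in libraries 4, 5 and 6. Aars was at 161, 176 and 208 CPM in the first 3 and 101, 98.7 and 118 CPM in the last 3. Iars2 ran the other way, at 83.6, 65.1 and 70.2 CPM in libraries 1, 2 and 3 and 119.6, 123.1 and 99.8 CPM in libraries 4, 5 and 6. Ears2 was at 33.4, 42.3 and 39.8 CPM and then 15.0, 18.1 and 20.5 CPM. The last 3 were within or next to the WT_PYR range in each of these genes. These genes were picked as examples, and others did not split in this way. Nars was at 92.4, 76.3 and 77.2 CPM in the first 3 and 77.8, 76.2 and 66.0 CPM in the last 3. Kars was at 119.6, 131.4 and 140.3 CPM and then 117.2, 107.9 and 144.3 CPM. Summed macrophage markers were 505 to 1540 CPM in libraries 1, 2 and 3 and 219 to 256 CPM in libraries 4, 5 and 6, against 142 to 267 CPM in WT_PYR hearts.

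Without libraries 4, 5 and 6, a choice made from the measured profiles that builds in a larger injury response, 9 cytosolic genes rose and 1 fell (Qars, -0.52), and 1 mitochondrial gene rose (Ears2, 0.88) and 5 fell. Medians were 0.36 for the cytosolic, -0.56 for the mitochondrial and -0.02 for all genes. Among the falls were Cars2 (-0.83), Fars2 (-0.83), Hars2 (-0.75) and Iars2 (-0.56). In that fit 33% of all genes were called. The injury contrasts under PBS and under pyridostigmine share no libraries, and the difference between them is the interaction tested last.

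The third comparison asked what pyridostigmine did within injured hearts, DTR_PYR against DTR_PBS. In the edgeR quasi-likelihood test 0 of the 37 genes and 0% of all genes were called, with 2991 genes at an unadjusted p under 0.05. DESeq2 called 0 of the 37 and 242 of all genes, and limma voom called 1 of the 37 (Vars2, 0.67) and 1765 of all genes. At an unadjusted p under 0.05 stood Farsa (-0.32) and Tars (-0.30) of the cytosolic genes and Vars2 (0.55) and Cars2 (0.47) of the mitochondrial genes. In 0 of the 37 were the groups apart, all higher (0.162% of all genes) or all lower (0.214%). Medians were -0.13 for the cytosolic, 0.23 for the mitochondrial and -0.01 for all genes. Without DTR_PYR libraries 4, 5 and 6 they were 0.03, 0.06 and -0.02, so the cytosolic median changed sign, and 0 of the 37 genes were called, with 2 of them and 868 of all genes at an unadjusted p under 0.05. In that fit Farsa was at -0.02, Tars at -0.19, Vars2 at 0.36 and Cars2 at 0.11. With all libraries the 95% intervals reached from 0.15 to 0.94 for Vars2 and from -0.55 to -0.05 for Tars. Without the 3 shallowest libraries Farsa passed at -0.54 (adjusted p = 0.0245), in a fit that called 13.7% of all genes. That fit leaves out DTR_PYR libraries 2 and 3, which lay among the DTR_PBS libraries, and keeps DTR_PYR libraries 4, 5 and 6. It therefore builds in a smaller injury response in DTR_PYR, and depth, drug and injury response cannot be told apart in it.

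Within uninjured hearts, WT_PYR against WT_PBS, 0 of the 37 genes and 0% of all genes were called by the edgeR quasi-likelihood test, with 481 genes at an unadjusted p under 0.05. DESeq2 and limma voom called 0 of the 37 and 1 and 0 of all genes. Nars2 alone of the 37 had an unadjusted p under 0.05, at 5.85, 7.40 and 13.2 CPM in WT_PBS and 5.11, 5.65 and 7.39 CPM in WT_PYR hearts (log2 change -0.50, unadjusted p = 0.0281, adjusted p = 0.998). In 0 of the 37 genes were the groups apart, with all WT_PYR hearts above (0.0906% of all genes) or all below (0.188%). The cytosolic median was -0.08 and the mitochondrial median -0.04, beside -0.01 for all genes.

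The interaction, which is the drug difference in injured hearts minus that in uninjured hearts, gave 0 calls among the 37 genes and 0% among all genes by the edgeR quasi-likelihood test, with 1231 genes at an unadjusted p under 0.05. DESeq2 called 0 of the 37 and 9 of all genes, and limma voom 0 and 0. Nars2 had the smallest unadjusted p of the 37 (log2 difference 0.92 ± 0.31, unadjusted p = 0.00643, adjusted p = 0.563). Medians were -0.04 for the cytosolic, 0.34 for the mitochondrial and 0.03 for all genes. Without DTR_PYR libraries 4, 5 and 6 they were 0.08 for the cytosolic, 0.06 for the mitochondrial and -0.00089 for all genes, Nars2 was at 0.81 and 0 genes were called, with 1 of the 37 and 361 of all genes at an unadjusted p under 0.05.

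The U and V tags were spread unevenly, with 4 U and 2 V libraries in each WT group and 2 U and 4 V libraries in each DTR group. Within U libraries alone and within V libraries alone, all 21 genes called in DTR_PBS against WT_PBS kept the sign of their change. The genes were called on these same libraries, so this agreement was largely built in. In each split 1 of the groups held 2 libraries. With the letter as a term in the fit, 11 cytosolic genes were called, and 11 mitochondrial genes with Aars2 (-0.53) added. That fit called 46.3% of all genes in DTR_PBS against WT_PBS, and the main fit 42.9%. DTR_PYR libraries 4, 5 and 6 all carried the letter V, as did library 3.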

How the data were processed

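The values came from the authors' deposited table of unfiltered raw counts, with 46078 genes and 24 libraries. The filtered count table the authors deposited held 15140 genes, all 37 synthetase genes among them with identical counts. The depth-normalised signal table the authors deposited was not used for any value. Alignment and counting tools are listed in the submitters' processing notes as HTSeq, TopHat2 2.1.1, TopHat and Bowtie2, with edgeR, DESeq and the build GRCm38. The sources used here do not give the role of each, the other versions or the annotation. Per the labels' protocols the libraries were single-end and not strand-specific, so overlapping genes cannot be separated: 14 members share exon bases with another gene, 3 of them at least 10%.

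A gene was tested if it exceeded 0.5 CPM in 6 or more libraries. The edgeR quasi-likelihood test was run on TMM-scaled counts, all 24 libraries in 1 model with 1 coefficient per group. P-values are two-sided with Benjamini-Hochberg adjustment over 15456 genes, called under 0.05. CPM are TMM-scaled. Exon lengths and overlaps came from GENCODE vM21, and promoters from RefSeq GRCm38.p6. Of 27 promoter entries for the members, 23 ran into the gene's own GENCODE transcript. DESeq2 1.42.0, limma 3.58.1 and edgeR 4.0.16 were run in R 4.3.3, and the fit was tested on simulated data. Replicate numbers follow accession order and pair nothing.

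The members, the lists and the marker sets were chosen with earlier results of these data known. The rule for names was: every synthetase gene, up to 4 called members of each list by smallest p in DTR_PBS against WT_PBS, Atf4, Asns, Ddit3, Trib3 and mt-Rnr2. Pus1, Aimp1, the pair ratios and the promoter letters were chosen after the values were seen. Slc7a5 and Prorp were not analysed here. Mtif3 had 2 entries and the more abundant was used. Alternatives were other scalings and filters, the tag letter as a term, only the groups compared, libraries left out, DESeq2 and limma voom. Values of 1 mitochondrial synthetase gene, 1 marker gene and 1 promoter sequence are not reported here, and the counts and sums include both genes.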

Additional observations from a re-analysis of the deposited data

Results flagged for a closer look

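In 7 of 144 checks of a gene within a group of 6, the highest or lowest library stood far from the others, by Dixon's ratio above its critical value. Chance gives about 1 in 20 such checks. In WT_PYR library 1 high values were Aars at 115.7 CPM, Farsb at 40.7 CPM and Qars at 82.5 CPM. The other high values were Yars at 58.2 CPM in DTR_PBS library 3 and Wars2 at 11.5 CPM in DTR_PBS library 4, the shallowest library. The low values were Iars at 59.5 CPM in DTR_PYR library 4 and Pars2 at 1.95 CPM in DTR_PYR library 3.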

How the results depend on the processing

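No paired analysis was possible because replicate numbers follow accession order and every title carries its own animal tag. In DTR_PBS against WT_PBS the cytosolic count was 10 to 12 and the mitochondrial count 8 to 10 with 1 library left out, and of the other alternatives only total-count scaling moved a count by over 1.5 times, the mitochondrial one from 10 to 6. In DTR_PYR against WT_PYR the cytosolic count of 6 became 10 with total-count scaling, 2 without a filter, 1 with only the groups compared, 10 without DTR_PYR libraries 4, 5 and 6, 0 without the 3 shallowest libraries, 2 with limma voom and 1 to 8 with 1 library left out. Over all genes the shares called were 14.7%, 4.2%, 8.91%, 33%, 0.647% and 5.09% in that order, against 12.2% in the main fit. Shares are not given for fits with 1 library left out. The mitochondrial count of 0 became 1 with total-count scaling (Mars2), 1 with the tag letter as a term (Cars2), 6 without DTR_PYR libraries 4, 5 and 6, 1 with DESeq2 (Mars2) and 0 to 1 with 1 library left out (1 without DTR_PYR library 5). With the tag letter as a term 18.9% of all genes were called, and DESeq2 called 2637 genes. In DTR_PYR against DTR_PBS the cytosolic count became 1 without the 3 shallowest libraries (Farsa), and the mitochondrial count 1 with limma voom (Vars2) and 0 to 1 with 1 library left out (1 without DTR_PYR library 2). The counts for WT_PYR against WT_PBS and for the interaction were 0 in every alternative run, and an interaction could not be fitted with only 2 groups. The 3 shallowest libraries include DTR_PYR libraries 2 and 3, which lay among the DTR_PBS libraries on the first principal component. The causes of the changed counts were not tested. Of 1813 values for single genes under alternatives other than leaving out 1 library, 34 newly passed, 32 no longer passed and 0 reversed as calls. Another 70, passing under neither setting, changed sign, the largest of them 0.44 in size. Precision was limited in Pars2 (2 counts in DTR_PBS library 4) and Nars2 (12 counts in its thinnest library).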
